A study of Mus musculus with 6 samples.

Results

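The TEAD transcription factors and the cofactors that bind them were followed across 3 groups of mouse cardiomyocytes (CMs). The set was taken by name: the coactivators *Yap1* and *Wwtr1* (which encodes TAZ), the 4 TEAD genes *Tead1* to *Tead4*, and the VGLL genes *Vgll2*, *Vgll3* and *Vgll4*, which made 9 of the 54532 genes in the count table. ICR wild-type mice received AAV9 subcutaneously at postnatal day 6, at 1e+11 viral genomes, and the hearts were taken on day 9. The virus carried GFP, YAP6SA or YAP5SA behind the cTnT promoter, which drives expression in CMs, and the labels give 2 hearts collected for each virus, without saying which hearts went into a library. In YAP5SA, the serines that LATS kinases phosphorylate are replaced. YAP6SA carries in addition the change of serine 94 to alanine, which inhibits the interaction with TEAD. CM nuclei, captured through PCM-1, gave poly-A RNA for non-directional libraries, with 2 libraries per group, 1 in each of 2 batches. Nothing further identifies the source animals, so p-values measure the spread between these libraries, part of which may be technical.

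As background, YAP and TAZ do not bind DNA themselves. They enter the nucleus when the Hippo kinase cascade (MST and LATS kinases) is off, and they act mostly on TEAD factors, which recognize the sequence GGAATG through their TEA domain. The VGLL proteins bind TEADs through a short Tondu domain, at a surface that overlaps the one YAP uses. VGLL4 is known as a competitor of YAP, whereas VGLL2 and VGLL3 are known as TEAD cofactors, with VGLL2 studied above all in skeletal muscle. In the postnatal heart, active YAP is known for driving CM proliferation.

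The promoters of the 3 VGLL genes are shown because all 3 genes were higher in YAP5SA OE (overexpression) CMs, as described below, and because TEAD sites can be looked for in these promoters. Each line is the 250 bases before the RefSeq start of the gene (GRCm38.p6), 5′ to 3′ on its own strand, with GGAATG or its reverse complement CATTCC in capitals. The windows are chr10:52022252-52022501 on the plus strand, chr16:65814939-65815188 on the plus strand and chr6:114969204-114969453 on the minus strand, and none of their bases lies in an annotated exon. The *Vgll4* window lies inside the gene as annotated in GENCODE M21 (114860628 to 114969994), so its start is not the outermost annotated one. 
Vgll2: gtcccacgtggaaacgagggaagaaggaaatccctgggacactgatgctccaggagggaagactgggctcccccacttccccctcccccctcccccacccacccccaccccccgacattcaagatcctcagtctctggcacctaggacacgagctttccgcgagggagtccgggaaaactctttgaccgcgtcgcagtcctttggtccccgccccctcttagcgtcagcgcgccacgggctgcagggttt
Vgll3: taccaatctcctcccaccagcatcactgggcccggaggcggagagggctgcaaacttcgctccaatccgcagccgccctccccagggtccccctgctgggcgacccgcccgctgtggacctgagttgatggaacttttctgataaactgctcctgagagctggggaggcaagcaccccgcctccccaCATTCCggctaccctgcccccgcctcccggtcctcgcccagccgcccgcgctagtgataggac
Vgll4: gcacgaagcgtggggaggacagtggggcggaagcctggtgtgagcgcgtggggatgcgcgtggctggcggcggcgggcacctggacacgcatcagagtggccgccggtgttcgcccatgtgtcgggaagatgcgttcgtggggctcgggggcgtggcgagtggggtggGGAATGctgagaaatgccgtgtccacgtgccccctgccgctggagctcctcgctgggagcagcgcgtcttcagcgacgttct
No match was in the *Vgll2* window. The *Vgll3* window held 1, which began 63 bases before the start, and the *Vgll4* window held 1, which began 82 bases before it. Over all 32851 windows of the table, 12.6% held the motif on either strand, with copies that share a base counted apart. Of the 9 genes, 7 had a window, in all 10 windows since *Wwtr1* and *Tead3* have several start sites, and 7 of these 10 held a match. Windows of one gene can overlap, so they are not separate observations. *Tead1* and *Tead4* had no window in the table. At the second of the *Tead3* start sites, 2 copies stood close together in the stretch gctCATTCCgtaCATTCCggc, which began 123 and 114 bases before that start, within exons of longer transcripts. *Yap1* held 1 match, 141 bases before its start, and *Wwtr1* held 1 that lies in both of its windows, 136 bases before the first start. These matches are descriptions of sequence, not sites of binding.

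Library depth ran from 14552847 to 19615627 reads on genes. At these depths a count of 0 allows up to 3 counts, or 0.153 to 0.199 CPM (counts scaled to library size by TMM), and this limit covers counting error only. Markers of CMs were abundant in all 6 libraries, with a summed level of 27196 to 62481 CPM over 7 genes. Each library of batch 2 held both *Xist* (578 to 640 CPM) and Y-linked RNA, whereas *Xist* was at most 0.407 CPM in batch 1, in all 3 groups, so the sex makeup of the libraries follows the batch, which is a term of the model. A library that holds both may be a pool of animals, so n counts libraries and the SD is a spread between libraries, not between mice. All 9 genes were among the 13323 genes tested. *Vgll2* and *Vgll3* passed the filter on low counts only through the YAP5SA group, the group in which they were high, and were tested in a fit without that filter as well.

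The order of the levels was compared per length of exon (RPKM, the CPM value per kilobase of annotated exon). The length joins the exons of all annotated transcripts and may differ from that of the transcripts present. An error in it would be alike in every library, so separation between libraries does not cover it. In the GFP libraries, *Tead3* was highest of the set with a mean of 49.5 RPKM, above 94.0% of the genes tested. It was followed by *Tead1* (16.9), *Yap1* (14.5), *Tead2* (7.51), *Wwtr1* (4.39), *Vgll4* (2.25), *Tead4* (0.477), *Vgll3* (0.176) and *Vgll2* (0.0516). The libraries of no neighbours in this order overlapped, and the median of the genes tested was 5.81 RPKM. Thus *Tead3*, *Tead1*, *Yap1* and *Tead2* stood above the median gene of these nuclei, and *Wwtr1*, *Tead4* and the VGLL genes stood below it. The order was the same in YAP6SA OE CMs. In YAP5SA OE CMs it was *Tead3* (70.3), *Tead1* (29.4), *Yap1* (13.0), *Tead2* (9.90), *Vgll4* (7.13), *Vgll3* (6.77), *Tead4* (5.06), *Wwtr1* (4.66) and *Vgll2* (2.12). There, the libraries of *Vgll3* overlapped those of *Vgll4* and *Tead4*, and those of *Tead4* overlapped those of *Wwtr1*, so these neighbours were not separated beyond their spread. All other neighbours in the order were.

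**Figure D1:**
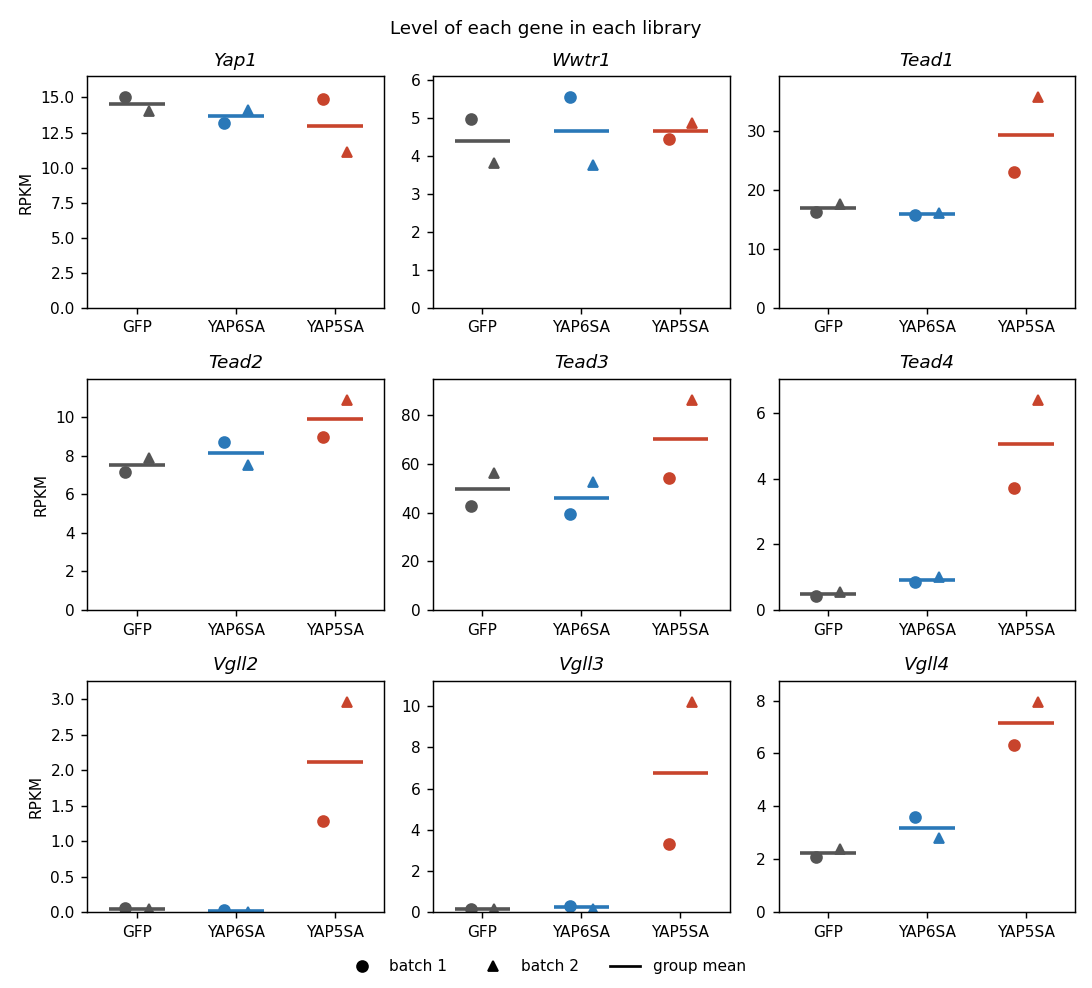
Level of each gene in RPKM (linear axis from 0, scaled to each gene) in the 2 libraries of each group, with the batch as the point shape and the group mean as a line. The YAP5SA points of *Tead1*, *Tead2*, *Tead4*, *Vgll2*, *Vgll3* and *Vgll4* lie above all GFP and YAP6SA points, and those of *Yap1* and *Wwtr1* do not separate from the other groups. For *Tead2* the margin is small, and its differences did not pass the test. How many of all genes tested separate in this way was not counted, here or below, so separation of libraries is a description only.

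Against GFP, YAP5SA OE CMs held more *Tead1*, *Tead4*, *Vgll2*, *Vgll3* and *Vgll4* mRNA, whereas neither *Yap1* nor *Wwtr1* passed the test. In this comparison 5 of the 9 genes were higher and 0 were lower at an FDR under 0.05 (edgeR quasi-likelihood test, Benjamini-Hochberg adjusted over all genes tested), where 12.8% of all genes tested were higher and 9.18% lower. Of the genes called, *Vgll2* and *Vgll3* had to be high in YAP5SA to be tested, so the count is not independent of the filter. The fit without the filter called 6 of the 9, the same 5 and *Tead3*, where 7.27% of all genes were higher. In YAP6SA OE CMs, 0 of the 9 differed from GFP, where 0.0450% of all genes tested were higher and 0% lower. DESeq2 also called 0 of the 9, beside 0.405% of all genes. An unadjusted p under 0.05 in the edgeR test was reached by 1 of the 9, beside 790 of the 13323 genes tested. Between the variants, 6 genes, the same 5 and *Tead3*, were higher in YAP5SA than in YAP6SA OE CMs and 0 were lower, where 9.0% of all genes tested were higher and 5.68% lower. A joint test of both group terms called 5, where 17.6% of all genes tested were called. The comparisons share libraries, so they are not independent of each other. In bulk RNA, fewer cells of a type and less RNA per cell cannot be told apart.

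**Figure D2:**
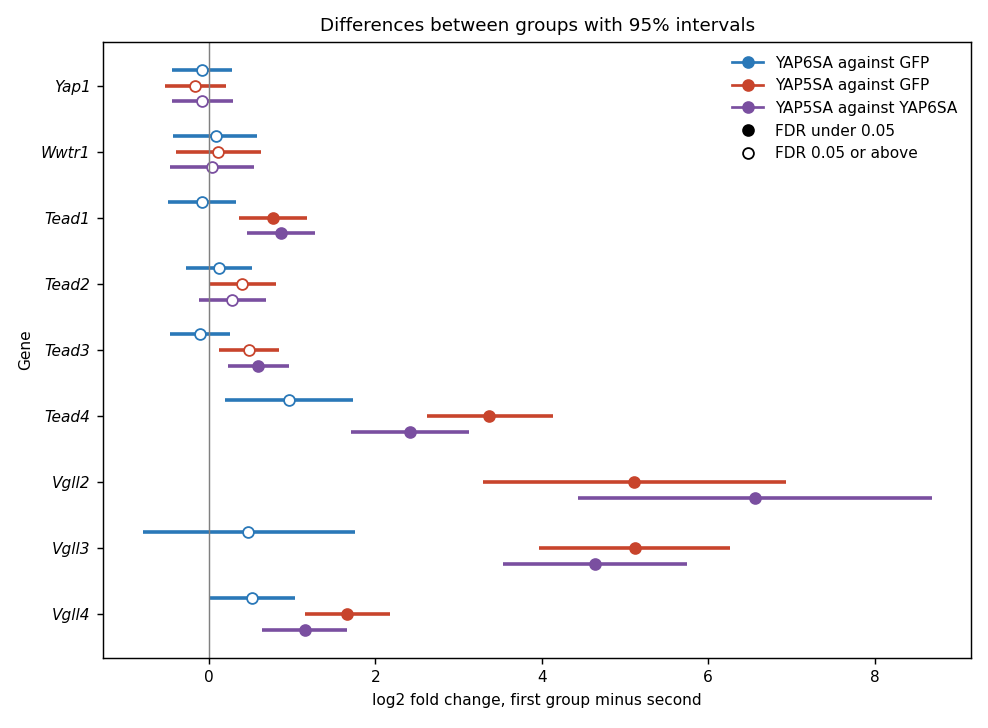
Log2 fold change of each gene in the 3 comparisons, with 95% intervals from the edgeR model as horizontal lines and filled points for an FDR under 0.05. The value of *Vgll2* in YAP6SA against GFP is left out because its libraries held at most 2 counts, and the intervals of *Yap1* and *Wwtr1* include 0 in each comparison.

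The coactivators come first. *Yap1* (ENSMUSG00000053110, minus strand of chromosome 9 in GRCm38, 7931999 to 8004596) is the gene that the delivered variants derive from. With batch 1 given first here and throughout, it had 139 and 130 CPM in GFP, 122 and 130 CPM in YAP6SA, and 138 and 102 CPM in YAP5SA libraries. The 3 groups overlapped, and the lowest library was YAP5SA of batch 2. The fold change against GFP was 0.941 for YAP6SA, with a 95% interval of 0.731 to 1.21, and 0.890 for YAP5SA, with an interval of 0.692 to 1.15. No excess of *Yap1* reads in the groups that received YAP was therefore seen in the counts, and whether reads of the viral cassette are counted on this gene was not tested. An antisense transcript, *Gm20416*, overlaps 1.25% of its exon bases and held 5 counts over all libraries, against 13095 for *Yap1*. *Wwtr1* (ENSMUSG00000027803, chromosome 3, 57455649 to 57575910, minus strand) encodes TAZ, the paralog of YAP. It had 23.8 and 18.2 CPM in GFP, 26.5 and 18.0 CPM in YAP6SA and 21.3 and 23.3 CPM in YAP5SA libraries. The groups overlapped here too, and the intervals of the fold change against GFP were 0.743 to 1.50 for YAP6SA and 0.759 to 1.53 for YAP5SA. For both genes the sign of the difference turned when single libraries were left out.

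Of the TEAD genes, *Tead4* showed the largest fold change. *Tead4* (ENSMUSG00000030353, chromosome 6, 128224288 to 128300823, minus strand), known for its role in the trophectoderm of the early embryo, had 28 and 30 counts in GFP, 60 and 59 in YAP6SA, and 202 and 411 in YAP5SA libraries. In CPM, the means were 1.72 ± 0.344 (SD, n = 2 for this and the following means), 3.31 ± 0.371 and 18.2 ± 6.83. The libraries of the 3 groups did not overlap: GFP was lowest and YAP5SA highest, and the YAP5SA library of batch 2 was the highest of all. In YAP5SA OE CMs *Tead4* was 10.4-fold above GFP (95% interval 6.14 to 17.5, FDR 3.3e-04) and 5.32-fold above YAP6SA (3.26 to 8.69, FDR 0.00165), by edgeR's quasi-likelihood test. These calls were made in all 13 alternative fits of each comparison. The log2 difference of YAP6SA from GFP was 0.96 (SE 0.34), with batch values of 1.00 and 0.83. This difference had the lowest p of the 9 genes in that comparison, with an unadjusted p of 0.0193 in the edgeR model, and it failed the adjustment (FDR 0.707, and 0.228 to 1 over the alternatives).

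*Tead1* (ENSMUSG00000055320, chromosome 7, 112679318 to 112906807, plus strand), which is required for heart development in mice, had 221 and 238 CPM in GFP, 213 and 218 CPM in YAP6SA, and 312 and 484 CPM in YAP5SA libraries. Both YAP5SA libraries were above the other 4, and that of batch 2 was far above that of batch 1. The increase over GFP was 1.71-fold (95% interval 1.29 to 2.27, FDR 0.0156 in edgeR) and that over YAP6SA was 1.81-fold (1.37 to 2.41, FDR 0.0137). Each call was lost when 1 library was left out. Against GFP this was without GFP replicate 2 (log2 fold change 0.66), and against YAP6SA without YAP6SA replicate 2 (0.69). Fewer of all genes passed in these fits as well. The edgeR log2 fold change against YAP6SA was 0.86 in the full set. For YAP6SA against GFP, the interval of the fold change was 0.711 to 1.25. An antisense noncoding gene, *2310014F06Rik*, overlaps *Tead1* outside its exons.

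*Tead3* (ENSMUSG00000002249, chromosome 17, 28331671 to 28350817, minus strand), the most abundant TEAD mRNA here, had 287 and 378 CPM in GFP, 263 and 353 CPM in YAP6SA, and 364 and 580 CPM in YAP5SA libraries. In each group the library of batch 2 was the higher one, and the lower YAP5SA library lay within the range of GFP but above both YAP6SA libraries. Within batches, YAP5SA exceeded GFP by 0.34 and 0.62 and YAP6SA by 0.47 and 0.72 on the log2 scale. Against YAP6SA the fold change was 1.51 (95% interval 1.18 to 1.94, FDR 0.0359 in edgeR). Against GFP it was 1.40 (1.09 to 1.79), just short of the threshold (FDR 0.0587). Both results lie near the threshold. The call against YAP6SA was lost without the replicate block (FDR 0.176), in a fit of only the 4 libraries compared (FDR 0.055), and when any library but YAP5SA replicate 1 was left out (FDR 0.0528 to 0.443). The difference from GFP passed with no filter on low counts (FDR 0.0337), with edgeR's likelihood ratio test (FDR 0.0427) and with DESeq2 (FDR 0.0443). It also passed without YAP5SA replicate 1 (log2 fold change 0.62), where more of all genes passed too.

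*Tead2* (ENSMUSG00000030796, chromosome 7, 45215753 to 45233644, plus strand), known mainly from embryonic tissues, had 34.3 and 37.7 CPM in GFP, 41.8 and 36.0 CPM in YAP6SA, and 42.9 and 52.0 CPM in YAP5SA libraries. The YAP5SA libraries were the highest 2 by a small margin, and GFP and YAP6SA overlapped. The fold change of YAP5SA was 1.32 against GFP (95% interval 0.998 to 1.74, FDR 0.140 in edgeR) and 1.21 against YAP6SA (0.920 to 1.60, FDR 0.325), and neither passed. Among the 13 alternatives, the difference from GFP passed only without YAP5SA replicate 1 (log2 fold change 0.56), where more of all genes passed too. *Cd37*, on the opposite strand, shares 13 exon bases with *Tead2*, and the libraries do not mark strand. It held 318 counts over all libraries against 4219 for *Tead2*.

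All 3 VGLL genes were higher in YAP5SA OE CMs than in both other groups. *Vgll3* (ENSMUSG00000091243, chromosome 16, 65815257 to 65866368, plus strand), a TEAD cofactor, had 24 and 19 counts in GFP, 42 and 20 in YAP6SA, and 354 and 1297 in YAP5SA libraries. GFP and YAP6SA overlapped near the bottom of the range of expressed genes, and both YAP5SA libraries lay far above them, with batch 2 above batch 1. The means were 1.25 ± 0.0149 CPM, 1.67 ± 0.653 CPM and 48.1 ± 34.8 CPM. In the edgeR model *Vgll3* was 34.7-fold above GFP (95% interval 15.6 to 76.9, FDR 3.3e-04) and 25.0-fold above YAP6SA (11.5 to 54.0, FDR 5.9e-04), and it was called in all 13 alternatives of each comparison, the unfiltered fit included (log2 fold change 5.12 and 4.65). Its size depended on the YAP5SA library: the log2 fold change against GFP was 5.12 with both, 6.12 without replicate 1 and 4.03 without replicate 2. The size of the rise, though not the call, thus rested on which of these was kept. Leaving out one GFP or YAP6SA library moved it less, to 4.70 to 5.52. Against YAP6SA it was 4.64 with all libraries, 5.69 and 3.62 without YAP5SA replicates 1 and 2, and 5.66 and 3.74 without YAP6SA replicates 1 and 2. The fold change of YAP6SA against GFP was 1.39, with an interval of 0.575 to 3.35.

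*Vgll2* (ENSMUSG00000049641, chromosome 10, 52022502 to 52028471, plus strand), the cofactor studied in skeletal muscle, was close to undetected outside YAP5SA. It had 2 and 1 counts in GFP, 1 and 0 in YAP6SA, and 32 and 87 in YAP5SA libraries. The GFP and YAP6SA libraries were all at or under the limit of 3 counts, so no fold is given between them. With library sizes taken into account, the summed counts of YAP5SA and GFP (119 and 3) gave a ratio of 41.3, with an exact 95% counting interval of 13.8 to 203. Those of YAP5SA and YAP6SA (119 and 1) gave a ratio of 131, with an interval of 23.0 to 5202. These intervals cover counting error only, and both leave the YAP5SA libraries far above the rest. The edgeR test, which takes the spread between libraries, gave an FDR of 0.00275 against GFP and 0.00242 against YAP6SA, and both calls were made in all 12 alternatives that kept the gene, with FDR at most 0.0424 and 0.0321. The fitted log2 fold change, 5.11 against GFP, moved with single libraries: it was 5.98 and 4.36 without GFP replicates 1 and 2, and 6.43 and 4.09 without YAP5SA replicates 1 and 2. All of these fits kept *Vgll2* higher in YAP5SA. Against YAP6SA the value was 6.56, and it was 9.24 and 5.34 without YAP6SA replicates 1 and 2, and 7.88 and 5.54 without YAP5SA replicates 1 and 2.

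*Vgll4* (ENSMUSG00000030315, chromosome 6, 114860628 to 114969994, minus strand), the competitor of YAP for TEADs, was the VGLL gene with the highest level in GFP. It had 11.4 and 12.9 CPM in GFP, 19.4 and 15.0 CPM in YAP6SA, and 34.2 and 42.8 CPM in YAP5SA libraries. The 3 groups did not overlap, with YAP6SA between the others. YAP5SA was 3.17-fold above GFP (95% interval 2.21 to 4.54, FDR 0.00149 in edgeR) and 2.22-fold above YAP6SA (1.56 to 3.16, FDR 0.0102). The first call was made in all 13 alternatives (log2 fold change 1.46 to 1.88). The second was lost without YAP6SA replicate 2 (log2 fold change 0.85), where fewer of all genes passed as well. For YAP6SA against GFP the fold change was 1.43 (0.997 to 2.04), with log2 differences of 0.77 and 0.22 in the batches, and it failed the test (FDR 0.839).

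The balance within and between the families was described by sums of RPKM over paralogs. TEAD mRNA summed to 66.6 and 82.3 RPKM in GFP, 64.5 and 77.2 RPKM in YAP6SA, and 89.9 and 139 RPKM in YAP5SA libraries. The sums were highest in YAP5SA, and YAP6SA lay near GFP within each batch. *Tead3* made up 60.3% to 68.4% of the sum in every library. The share of *Tead4* was 0.615% and 0.661% in GFP, 1.32% and 1.29% in YAP6SA, and 4.13% and 4.60% in YAP5SA libraries, so it remained the smallest of the 4 throughout.
The VGLL sum was 2.35 and 2.61 RPKM in GFP, 3.93 and 2.96 RPKM in YAP6SA, and 10.9 and 21.1 RPKM in YAP5SA libraries. *Vgll4* made up 89.7% to 94.2% of it in GFP and YAP6SA, and 58.0% and 37.6% in the YAP5SA libraries of batches 1 and 2, where *Vgll3* took 30.2% and 48.4% and *Vgll2* took 11.8% and 14.0%. In the YAP5SA library of batch 2, *Vgll3* was thus more abundant per length than *Vgll4*. 
The ratio of the VGLL sum to the TEAD sum was 0.0352 and 0.0317 in GFP, 0.0610 and 0.0383 in YAP6SA, and 0.121 and 0.152 in YAP5SA libraries. The *Yap1* and *Wwtr1* sum ranged from 15.9 to 20.0 RPKM, and its ratio to the TEAD sum was 0.301 and 0.216 in GFP, 0.290 and 0.231 in YAP6SA, and 0.216 and 0.114 in YAP5SA libraries. These are levels of mRNA in nuclei, and the protein made from the viral cassettes is not in them. No test was run on the sums or shares.

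**Figure D3:**
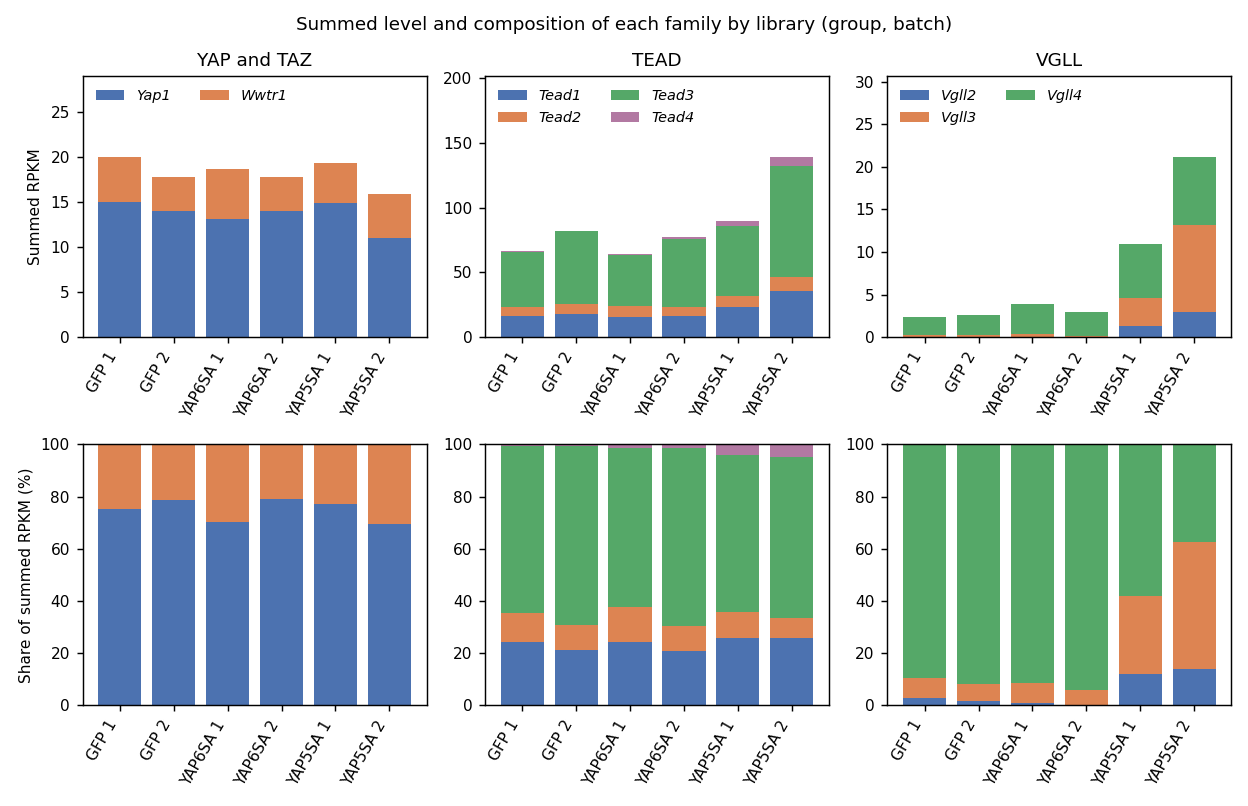
Summed RPKM (upper row, bars from 0) and share of that sum in percent (lower row) for the YAP and TAZ, TEAD and VGLL genes in each library, named by group and batch. *Tead3* is the largest part of the TEAD bars in every library, and *Vgll3* grows from at most 7.65% of the VGLL bars in GFP and YAP6SA to 30.2% and 48.4% in YAP5SA.

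The genes around the TEADs were taken from a pair of lists. The first holds 22 genes of the Hippo kinase cascade and its upstream regulators, and all were tested. In YAP5SA OE CMs 6 of them were higher and 1 was lower than in GFP (edgeR), where 12.8% of all genes tested were higher and 9.18% lower, with a median log2 fold change of 0.17, beside -0.0031 over all genes tested. *Wwc1*, a scaffold upstream of LATS, had 0.999 and 0.718 CPM in GFP, 1.17 and 0.0606 CPM in YAP6SA, and 18.2 and 59.0 CPM in YAP5SA libraries (log2 fold change against GFP 5.34, SE 0.75, FDR 0.00151), where it was high in both. *Amot*, which encodes the YAP-binding protein angiomotin, rose by 2.92 (SE 0.52, FDR 0.00468). Both genes passed the filter on low counts only through YAP5SA, the group in which they were high, so they had to be high there to be tested. In the fit without it, both were called (FDR 2.5e-50 and 1.8e-05), and the list again had 6 higher genes, where 7.27% of all genes in that fit were higher. The FDRs of the fits cannot be compared directly. That of *Wwc1* was 0.00151 with the filter and 2.5e-50 without it, at log2 fold changes of 5.34 and 5.35. The unfiltered fit is therefore not an independent check. The others that rose were *Amotl2*, *Lats2*, *Ajuba* and *Ptpn14*, by 0.59 to 2.83 on the log2 scale. Of these, all but *Ajuba* also stand in the target list below. *Mob1b*, an activator of LATS kinases, was the gene that fell, by 0.49 on the log2 scale (SE 0.15, FDR 0.0460), and this call was lost without the filter (FDR 0.0795). Among the kinases and their adaptors, *Lats1*, *Stk3*, *Stk4* and *Sav1* did not pass. Against YAP6SA, 5 were higher and 1 was lower, with and without the filter, beside 9.0% and 5.68% of all genes tested. In YAP6SA OE CMs, 0 of the 22 differed from GFP, where 0.0450% of all genes tested were higher and 0% lower. With so few calls among all genes, this 0 says little about the list. The median log2 fold change was 0.03. The lowest unadjusted p values were those of *Amot* (log2 fold change 1.34, FDR 0.804 in edgeR) and *Frmd6* (-0.32, FDR 0.842), the latter a scaffold of the cascade.

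The second list holds 22 genes known as targets of YAP and TEADs, of which 20 were tested. In YAP5SA OE CMs 13 were higher and 0 lower than in GFP, where 12.8% of all genes tested were higher and 9.18% lower, with a median log2 fold change of 1.04. *Ccn2*, which encodes the matricellular protein CTGF, had 99.7 and 42.6 CPM in GFP, 97.2 and 133 CPM in YAP6SA, and 506 and 958 CPM in YAP5SA libraries, a log2 increase over GFP of 3.33 (SE 0.43, FDR 1.0e-03 in edgeR). *Amotl2* rose by 2.83 (SE 0.25, FDR 1.9e-04 in edgeR). It also stands in the Hippo list, as do *Lats2* and *Ptpn14*, so the counts of the lists are not separate observations. The smallest of the called changes were those of *Ptpn14* (0.59, FDR 0.0277) and *Arhgef17* (0.64, FDR 0.0127). Against YAP6SA, 12 were higher and 0 lower, beside 9.0% and 5.68% of all genes tested, with a median of 1.14. In YAP6SA OE CMs, 0 of the 20 differed from GFP, where 0.0450% of all genes tested were higher, with a median of 0.09, beside 0.0018 over all genes tested. *Ankrd1*, a cardiac ankyrin repeat protein gene, had the lowest unadjusted p there, with 726 and 874 CPM in GFP, 1325 and 1596 CPM in YAP6SA and 3425 and 4814 CPM in YAP5SA libraries. The 3 groups did not overlap for *Ankrd1*, and its log2 fold change of 0.87 (SE 0.20) in YAP6SA OE CMs failed the adjustment (FDR 0.328). It passed in the fit without the filter on low counts (FDR 2.9e-05), as did *Ccn2* (log2 fold change 0.66, FDR 0.0350), whose GFP and YAP6SA libraries overlapped, so the count of 0 depends on the filter. *Ccdc80* was next (0.54, FDR 0.842).

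**Figure D4:**
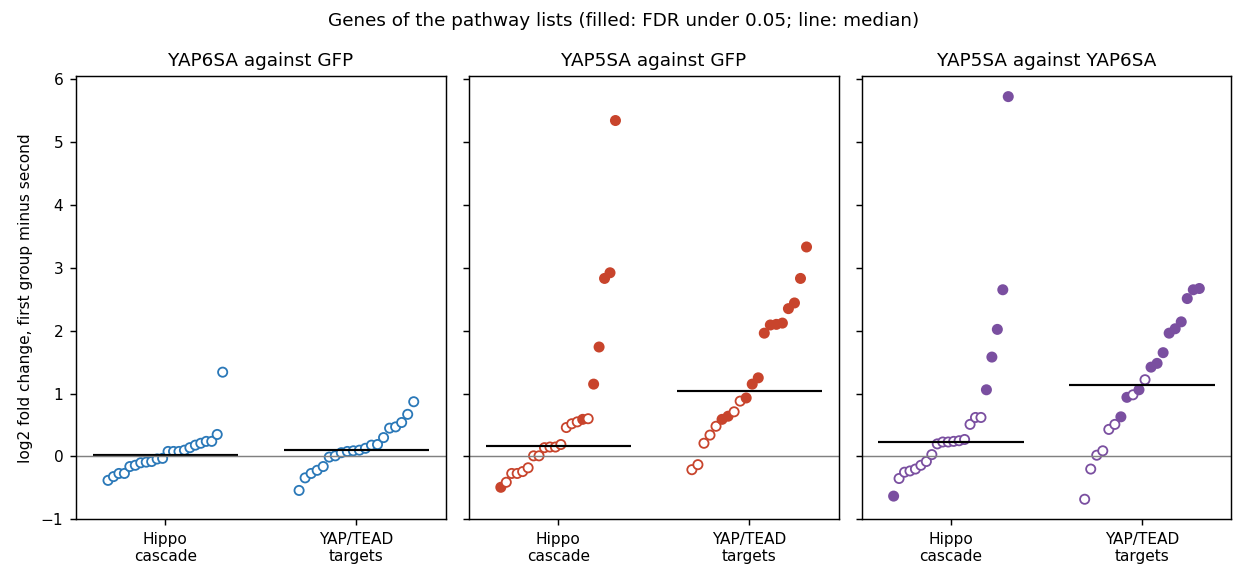
Log2 fold change of each tested gene of the Hippo list (22 genes) and of the YAP/TEAD target list (20 genes) in the 3 comparisons, sorted within each list. Filled points had an FDR under 0.05 and the lines are the medians: 13 target genes are filled in YAP5SA against GFP and 0 in YAP6SA against GFP, where 2 passed in the fit without the filter on low counts.

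Markers of other cell types were measured beside these changes. Of 5 epicardial markers, 3 were higher in YAP5SA OE CMs than in GFP (*Wt1*, *Tbx18* and *Krt19*). In this comparison, used for all marker counts here, 12.8% of all genes tested were higher and 9.18% lower (edgeR). The summed level of the 5 was 70.3 to 79.2 CPM in GFP, 62.9 to 91.3 CPM in YAP6SA and 187 to 334 CPM in YAP5SA libraries. Most of the YAP5SA sum was *Wt1* (92.9 and 155 CPM) and *Tbx18* (64.5 and 149 CPM). *Upk3b* and *Msln*, which also mark the epicardium, did not pass the test (log2 fold change 0.73 and 0.03). Of 7 CM markers, 2 were lower in YAP5SA OE CMs (*Ryr2* and *Pln*), and the summed level was 46198 to 62481 CPM in GFP, 43443 to 56350 CPM in YAP6SA and 27196 to 38045 CPM in YAP5SA libraries, lowest in batch 2. In both YAP5SA libraries the epicardial sum was thus above, and the CM sum below, those of the other 4 libraries. Of 6 macrophage markers, of which 5 were tested, 2 were higher (*Lyz2* and *C1qa*), with sums of 50.3 to 69.8 CPM in GFP, 63.1 to 85.7 CPM in YAP6SA and 71.1 to 111 CPM in YAP5SA libraries. Of 6 mural markers, 1 was lower (*Abcc9*), with sums of 498 to 568 CPM in GFP, 566 to 588 CPM in YAP6SA and 336 to 429 CPM in YAP5SA libraries. *Abcc9* encodes a potassium channel subunit that CMs express as well. For fibroblasts (7 markers), endothelial cells (7 markers) and Schwann cells (2 markers tested of 4), 0 were called, and the fibroblast sums, 842 to 1344 CPM in GFP and 881 to 1466 CPM in YAP5SA libraries, overlapped. The part of these cells in the rise of *Tead1*, *Tead4* and the VGLL genes was not tested.
Since *Vgll2* is known from skeletal muscle, 5 regulators of the skeletal muscle lineage were measured as well. *Myod1*, *Myf6* and *Pax7* were at 0 in all libraries, and *Myf5* was at most 0.424 CPM. *Myog*, which encodes myogenin, was at 0 in GFP and YAP6SA and at 1.26 and 2.91 CPM in the YAP5SA libraries, too low to be tested.

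The genes whose pattern over the 6 libraries was most like that of each called gene were found from log2 CPM values centred on each gene's mean, by the root mean square (RMS) difference over all genes tested. For *Tead4* they were *Gm14320* (RMS 0.154) and *Trp63*, a transcription factor of stratified epithelia (0.251), against a median of 1.43 over all genes. *Vgll2* was closest to *Col4a4* (0.174), a basement membrane collagen, and *Mbnl3* (0.178), a splicing regulator. *Vgll3* was closest to *Col4a3* (0.261), the partner chain of *Col4a4*, and *E330021D16Rik* (0.305). 
The closest genes of *Vgll4* were *Hsd17b7* (0.102) and *2310022B05Rik* (0.109). *Tead1* was closest to *Rabgef1* (0.0341) and *Pef1* (0.0361), and *Tead3* to *Cttn* (0.0516), which encodes the actin-binding protein cortactin, and *Calr* (0.0571), an endoplasmic reticulum chaperone. Within the set, *Tead1* and *Tead3* were each other's closest (0.189), as were *Vgll2* and *Vgll3* (0.441). The member closest to *Vgll4* was *Tead1* (0.397), not another VGLL gene. These distances describe 6 libraries that share batches and carry no test. They are not scaled to the spread of each gene, so genes with changes of similar size lie close. *Vgll2* and *Vgll3* passed the filter on low counts only through YAP5SA, so their closeness is not independent of it.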

How the data were processed

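Nuclear poly-A RNA of 6 mouse libraries was measured by RNA-seq. The authors mapped reads with STAR to mm10 (Ensembl GRCm38.94) and deposited raw read counts per gene, 1 column per library, with no normalization. Groups came from the sample labels. Genes were kept when the median log2 CPM of at least 1 group was over 1. edgeR 4.0.16 in R 4.3.3 (TMM scaling, quasi-likelihood test) fitted the counts over all 6 libraries with batch and group terms, and tested with Benjamini-Hochberg adjustment at 0.05. Log2 fold changes are fitted values, and SE is their standard error. Batch values are differences of log2 CPM with a prior count of 2. The replicate number is the batch number in the labels, so the block pairs libraries, and libraries of one batch deviated together (correlations across genes 0.368, 0.0985 and 0.175 for the 3 pairs of groups). Replicates had a chi-square of 19 to 29.9 per degree of freedom against each other, so none was a copy. Exon lengths, coordinates and overlaps came from GENCODE M21 (GRCm38). Promoters came from RefSeq. Alternatives were RLE scaling, other filters, the likelihood ratio test, DESeq2 1.42.0, no block, only the 4 libraries compared, and each library left out. The fits were tested on simulated data. The members, gene lists and tests were chosen with earlier results of these data known. Named were all 9 genes, genes annotated as overlapping them, their 2 closest genes by pattern, and in each list the 2 highest and 2 lowest called in YAP5SA and the 2 lowest p in YAP6SA, and further list genes and markers chosen after their values were seen. Protein sequences were not analysed here.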

Additional observations from a re-analysis of the deposited data

How the results depend on the processing

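With 2 libraries per group, each leave-one-out fit had 1 library in a group, which is assumed to vary like the others, and a missed threshold does not show equality. With the replicate block removed, 0, 5 and 5 members were called in YAP6SA against GFP, YAP5SA against GFP and YAP5SA against YAP6SA, beside 0, 5 and 6 with it, and 5 in the joint test with and without it. Of all genes tested, 0%, 15.7% and 8.65% were called without the block, beside 0.045%, 22% and 14.7% with it. In the joint test these shares were 10.5% and 17.6%. Among the members, *Tead3* against YAP6SA was the call that changed without the block. Leaving out single libraries gave 3 to 6 called members in YAP5SA against YAP6SA, the 3 being without YAP6SA replicate 2, and 4 to 7 in YAP5SA against GFP. The differences that changed sign were all ones that missed the threshold, and they did so only with a library left out. For YAP6SA against GFP, the lowest and highest log2 fold changes were -0.28 and 0.09 for *Yap1*, -0.15 and 0.27 for *Wwtr1*, -0.26 and 0.07 for *Tead1*, -0.10 and 0.32 for *Tead2*, and -0.62 and 1.30 for *Vgll3*. For YAP5SA against GFP they were -0.38 and 0.05 for *Yap1* and -0.19 and 0.41 for *Wwtr1*. For YAP5SA against YAP6SA they were -0.29 and 0.15 for *Yap1* and -0.26 and 0.34 for *Wwtr1*. The causes were not tested. The filter of at least 10 counts in every library removed *Vgll2*. DESeq2 gave it no adjusted p in YAP6SA against GFP. Of all genes, 6 were called there in the main model, 276 with only the 4 libraries compared, 145 without a filter, 82 by the likelihood ratio test, 54 by DESeq2 and 0 without the block, and none of these fits called a member. The lists were refitted without the filter after the data were seen. The Hippo list then had 6 higher and 0 lower genes in YAP5SA against GFP, and the target list had 14 higher, against 13 with the filter, and 2 higher in YAP6SA against GFP, against 0. In YAP5SA against YAP6SA the target list had 14 higher and 1 lower, against 12 and 0. Of all genes in the fit without the filter, 7.27% were higher in YAP5SA against GFP. The share was 0.398% in YAP6SA against GFP and 5.81% in YAP5SA against YAP6SA.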
